A study of Brachypodium distachyon with 35 samples.

Results

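Copper treatment was followed in seedlings of Brachypodium distachyon Bd21-3, a small temperate grass used as a model for cereals, by quantitative real-time PCR (qPCR) of the BdbZIP transcription factor family. The samples were chosen by their labels. They were seedlings treated with 0.05 mM CuSO4 for 24 h (Cu 24 h) or 6 h (Cu 6 h), and an untreated control (CK3). The authors' fold changes use CK3 as the control of the metal treatments and also of NaCl at 6 h. The copper samples are 2 of the 35 samples of the series, and each condition has 1 sample. All seedlings were of the same line, with no transgene named. The sample labels give their age as 20 days, whereas the treatment protocol speaks of plants of 2 weeks. Ct values of 96 BdbZIP genes were read together with that of BdGAPD, a glyceraldehyde-3-phosphate dehydrogenase gene that served as the reference. The table holds no tissue markers, so the labelled tissue could not be checked. In whole seedlings, fewer cells of a type and less RNA per cell cannot be told apart.

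Copper is an essential cofactor of photosynthetic and respiratory electron transport, and in excess it is toxic because it cycles between redox states and drives the formation of reactive oxygen species. Proteins of the bZIP family bind DNA as dimers through a basic region and a leucine zipper. In Arabidopsis and rice, members of the family act in abscisic acid signalling, in defence downstream of salicylic acid, in the unfolded protein response and in zinc deficiency.

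Ct counts the PCR cycles needed before the fluorescence of the product is detected, and a lower Ct stands for more template. The level of a gene is given on a log2 scale as the Ct of BdGAPD minus the Ct of the gene in the same sample, and a log2 change is the difference of 2 such levels (–ΔΔCT). The Ct of BdGAPD was 18.32 in Cu 24 h, 20.86 in Cu 6 h and 20.08 in CK3. The reference was therefore detected 1.76 cycles earlier in Cu 24 h than in CK3, and 0.78 cycles later in Cu 6 h than in CK3. The median Ct of the 96 BdbZIP genes moved much less, at 26.21 in Cu 24 h, 26.77 in Cu 6 h and 26.42 in CK3. Changes are therefore given relative to BdGAPD and, as a second scaling, relative to the median of the 96 genes of each sample (the family median). The second scaling adds 1.55 to each log2 change of Cu 24 h over CK3 and adds -0.43 to each log2 change of Cu 6 h over CK3. It shows which genes stood above or below the rest of the family, and it cannot show a change of the whole family. The normalized table of the authors implies other reference Ct values for the copper samples, 18.88 in Cu 24 h and 20.09 in Cu 6 h, and the deposited value of 20.08 in CK3. The part of the reference gene in the results was not tested.

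**Figure D1:**
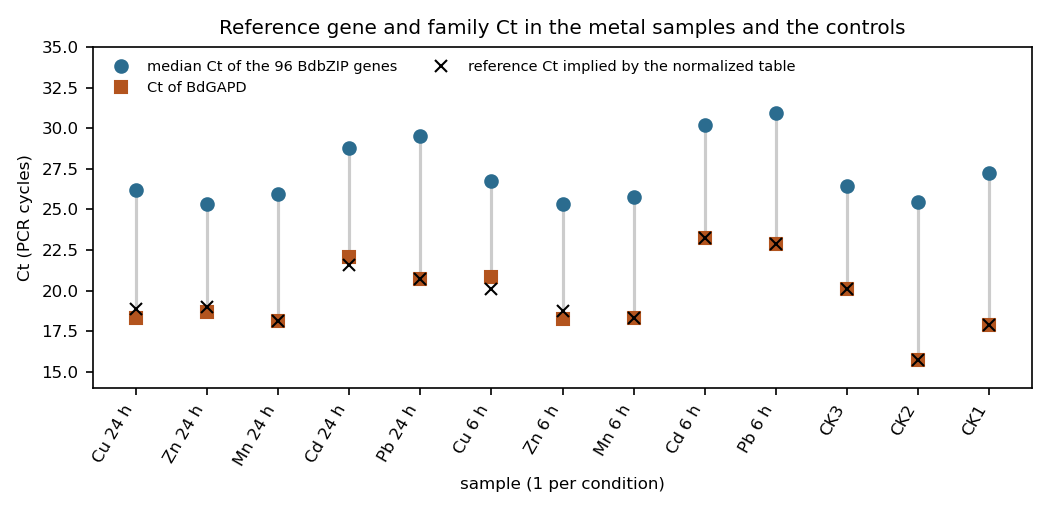
Ct in PCR cycles of BdGAPD (squares), the median Ct of the 96 BdbZIP genes (circles) and the reference Ct implied by the normalized table (crosses), for the metal samples and the controls, 1 sample each. BdGAPD lies at 18.32 in Cu 24 h, 20.86 in Cu 6 h and 20.08 in CK3, while the family median lies between 26.21 and 26.77 in these samples.

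The deposited Ct values hold no replicate spread, and the study's p-values were not used here. No test was therefore made, and no difference below is called significant. The only measure of error in the table comes from 8 pairs of BdbZIP genes that the study's primer list gives identical primers. Within a pair, the log2 changes of Cu 24 h over CK3 differed by 0.08 to 1.39, with a median of 0.30, and those of Cu 6 h over CK3 by 0.04 to 1.39, with a median of 0.54. The pairs give an SD of 0.46 for a single log2 change of Cu 24 h over CK3, 0.58 for Cu 6 h over CK3 and 0.52 for Cu 24 h over Cu 6 h (8 pairs each). BdbZIP22 and BdbZIP27 stayed within 0.26 of each other at both times. BdbZIP94 and BdbZIP95 differed at 6 h, with changes of 0.58 and -0.81 (log2), and BdbZIP32 and BdbZIP33 at 24 h, with changes of -0.43 and -1.82 (log2). Neither the error of the BdGAPD Ct, which is common to all genes of a sample, nor the variation between plants is part of this SD. The SD covers changes among the copper samples and CK3 only. A steady offset between the wells of a pair cancels in it, as in BdbZIP50 and BdbZIP51, with a Ct of 31.02 and 33.72 in CK3. In seedlings treated with manganese for 24 h, the same-primer genes BdbZIP50 and BdbZIP51 had log2 levels of -7.84 and -14.19. Ct reached 35 or more in at least 1 of the 3 samples in 19 of the 96 genes, and the values of these genes are less reliable.

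After 24 h of copper most BdbZIP genes lay below CK3 relative to BdGAPD. Of the 96 genes, 70 (72.9%) were at most 0.5-fold and 4 (4.17%) at least 2-fold higher, with a median log2 change of -1.53, which was 0.015 relative to the family median and 0.23 with no reference gene. With the other untreated samples, CK1 and CK2, in place of CK3 the median was 1.40 and 1.17 (log2), so the direction holds for CK3 alone. Among the 70 genes, 24 were at most 0.25-fold. Relative to the family median, 18 genes (18.8%) were at most 0.5-fold and 21 (21.9%) at least 2-fold higher. The middle of the family lay close together, with quartiles of -1.99 and -0.68 (log2) relative to BdGAPD.

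The lowest values at 24 h belonged to BdbZIP28, BdbZIP64, BdbZIP68, BdbZIP61 and BdbZIP16. BdbZIP28 (bradi2g04590) had a log2 level of -14.13 in Cu 24 h, -14.19 in Cu 6 h and -10.42 in CK3, and was low at both times. BdbZIP64 (bradi3g31890), of the RF2/VIP1 type, had a level of -14.16 in Cu 24 h, -12.22 in Cu 6 h and -10.63 in CK3. BdbZIP68 (bradi3g41820), of the same type, had a level of -13.77 in Cu 24 h, -10.30 in Cu 6 h and -10.35 in CK3. The changes over CK3 at 24 h were -3.71, -3.53 and -3.42 (log2) for these 3 genes, and they stayed negative relative to the family median, at -2.16, -1.98 and -1.88 (log2). BdbZIP67 (bradi3g41817), whose position overlaps that of BdbZIP68 in the study's gene list, was less low. Its change at 24 h was -2.16, or -0.615 relative to the family median (log2). BdbZIP61 (bradi3g09340), of the bZIP34/bZIP61 type, had a level of -8.36 in Cu 24 h, against -5.12 in Cu 6 h and -4.96 in CK3. BdbZIP16 (bradi1g36750) had a level of -7.27 in Cu 24 h, against -3.31 in Cu 6 h and -3.96 in CK3. Both were thus low in Cu 24 h alone, with changes over CK3 of -3.40 and -3.31 (log2). That pattern was common relative to BdGAPD, since 54 genes were at most 0.5-fold at 24 h and between 0.5-fold and 2-fold at 6 h. With CK1 or CK2 as the control, the changes of BdbZIP28, BdbZIP64, BdbZIP68 and BdbZIP16 at 24 h were positive, from 1.58 to 3.03 (log2), and those of BdbZIP61 were -0.38 with CK1 and 1.74 with CK2 (log2).

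The highest values at 24 h belonged to BdbZIP60, BdbZIP17, BdbZIP62, BdbZIP34 and BdbZIP38. BdbZIP60 (bradi3g07540) had a Ct of 34.34 in Cu 24 h, 38.29 in Cu 6 h and 39.29 in CK3, and BdbZIP17 (bradi1g43660) a Ct of 35.01 in Cu 24 h, 37.62 in Cu 6 h and 39.12 in CK3. Their changes over CK3 at 24 h, 3.19 and 2.35 (log2), therefore rest on late amplification in the control. BdbZIP62 (bradi3g15590), a TGA-type gene, was measured at earlier cycles, with a level of -9.94 in Cu 24 h, -10.31 in Cu 6 h and -11.20 in CK3. Its change over CK3 was 1.26 (log2) at 24 h and 0.89 (log2) at 6 h, and it was the only one of the 4 genes past 2-fold at 24 h with every Ct below 35. BdbZIP34 (bradi2g21380), also of the TGA type, had a level of -14.95 in Cu 24 h, -13.75 in Cu 6 h and -16.20 in CK3, with a Ct of 36.28 in CK3. BdbZIP38 (bradi2g25400), a membrane-anchored type, had a change of 0.54 (log2) at 24 h, which was 2.08 relative to the family median. With CK1 and CK2 as the control, the change at 24 h was 4.85 and 5.13 in BdbZIP60, 1.39 and 2.71 in BdbZIP62, and 1.80 and 1.24 in BdbZIP38, whereas it was -4.42 and -3.56 in BdbZIP17 and -1.19 and 0.38 in BdbZIP34 (log2). Relative to the family median with these controls, it was 3.415 and 3.29 in BdbZIP60, -0.045 and 0.87 in BdbZIP62, and 0.365 and -0.6 in BdbZIP38 (log2).

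**Figure D2:**
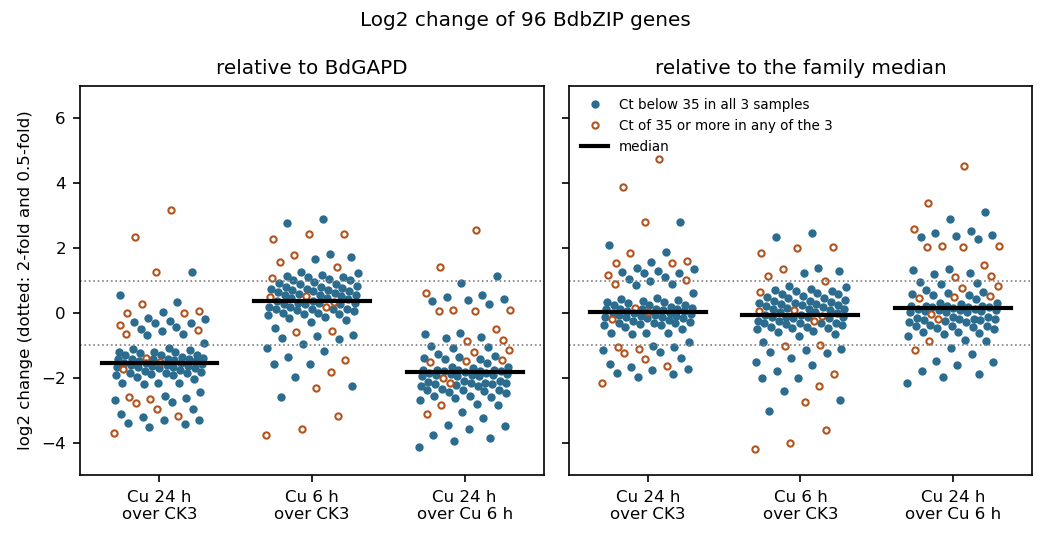
Log2 change of each of the 96 BdbZIP genes (points) for Cu 24 h over CK3, Cu 6 h over CK3 and Cu 24 h over Cu 6 h, relative to BdGAPD (left) and to the family median (right), with the median as a bar and genes with a Ct of 35 or more in any of the 3 samples as open points. Relative to BdGAPD the medians lie at -1.53, 0.38 and -1.84, and relative to the family median they lie at 0.015, -0.055 and 0.14.

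After 6 h of copper the family lay close to CK3. The median log2 change was 0.38 relative to BdGAPD, and it was -0.055 relative to the family median and -0.41 with no reference gene. With the normalized table of the authors it was -0.40, and with CK1 and CK2 as the control it was 2.95 and 2.96 (log2). At least 2-fold higher were 21 genes (21.9%), and 14 (14.6%) were at most 0.5-fold, relative to BdGAPD. With the family median as reference, 20 genes (20.8%) were at most 0.5-fold and 11 (11.5%) at least 2-fold higher. BdbZIP38 had the highest change, 2.91 (log2), with a level of -3.75 in Cu 24 h, -1.38 in Cu 6 h and -4.29 in CK3. Its Ct was 22.24 in Cu 6 h and 24.37 in CK3, so the gene was also detected 2.13 cycles earlier in Cu 6 h before any scaling. BdbZIP41 (bradi2g45567), a G-box factor, followed with a level of -10.21 in Cu 24 h, -7.14 in Cu 6 h and -9.90 in CK3, and its same-primer partner BdbZIP42 had -9.71 in Cu 24 h, -7.32 in Cu 6 h and -9.03 in CK3. The changes at 6 h were 2.76 and 1.71 (log2) for this pair, both past 2-fold and 1.05 apart. BdbZIP34, BdbZIP40 and BdbZIP17 came next at 2.45, 2.44 and 2.28 (log2), all with a Ct of 36.28 or more in CK3. Relative to the family median, the change at 6 h with CK1 and CK2 as the control was 0.76 and -0.205 in BdbZIP38 and 1.03 and -0.045 in BdbZIP41 (log2). With CK1 and CK2 as the control and relative to BdGAPD, the change at 6 h was 4.17 and 3.61 in BdbZIP38 and 4.44 and 3.77 in BdbZIP41. It was 0.01 and 1.58 in BdbZIP34, -1.65 and -0.71 in BdbZIP40 and -4.49 and -3.63 in BdbZIP17 (log2).

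The lowest values at 6 h belonged to BdbZIP28, BdbZIP92, BdbZIP58, BdbZIP49 and BdbZIP52, and 4 of these 5 reached a Ct of 35 or more. BdbZIP28 had a Ct of 32.45 in Cu 24 h, 35.05 in Cu 6 h and 30.50 in CK3. BdbZIP92 (bradi4g42120) had a Ct of 34.96 in Cu 24 h, 38.11 in Cu 6 h and 33.76 in CK3. BdbZIP58 (bradi3g06670) had a Ct of 32.79 in Cu 24 h, 37.88 in Cu 6 h and 33.91 in CK3. The log2 changes of these genes at 6 h were -3.77, -3.57 and -3.19, the last of which stood beside -0.64 at 24 h. BdbZIP49 (bradi2g55570), a TGA-type gene, had a level of -11.62 in Cu 24 h, -12.55 in Cu 6 h and -9.95 in CK3, with no Ct over 33.41. BdbZIP52 (bradi3g00300) had a log2 change of -3.19 at 24 h and -2.31 at 6 h, with a Ct of 36.36 in Cu 24 h, 38.02 in Cu 6 h and 34.93 in CK3. The changes of BdbZIP49, BdbZIP52 and BdbZIP58 at 6 h stayed at most 0.5-fold with CK1 and CK2, from -3.63 to -1.95 (log2). Those of BdbZIP92 were -1.42 with CK1 and -0.57 with CK2, and those of BdbZIP28 were 1.52 and 2.97 (log2) with these controls.

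**Figure D3:**
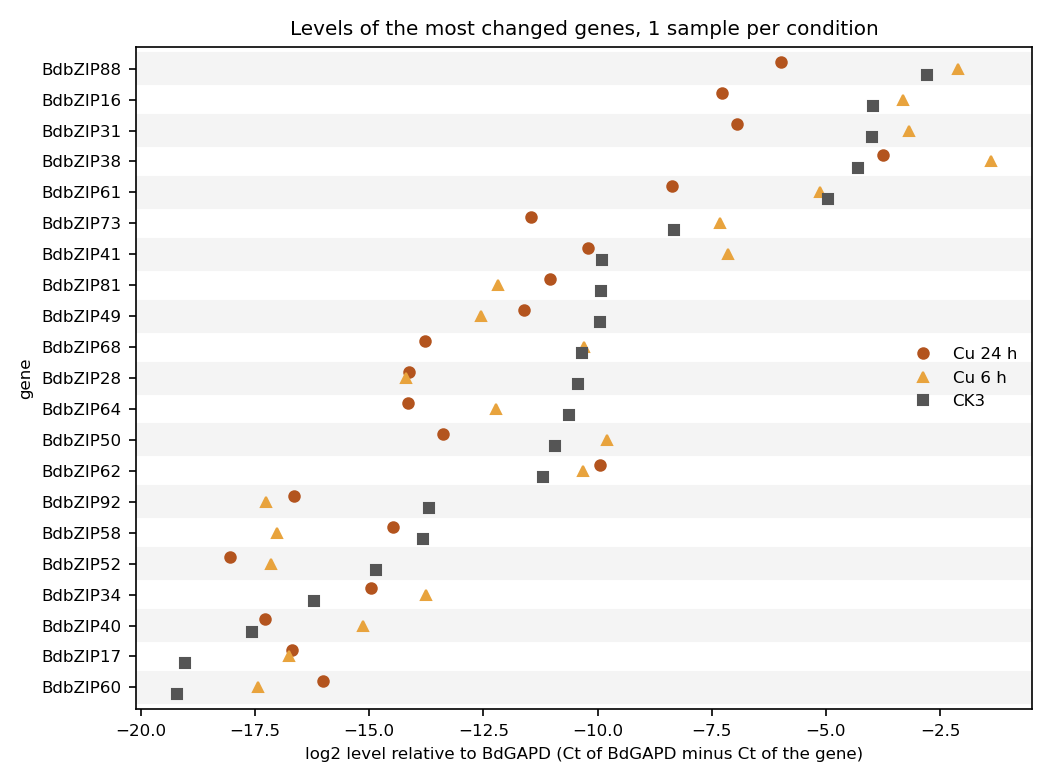
Log2 level relative to BdGAPD of the genes with the 5 highest and 5 lowest changes of each comparison, in Cu 24 h (circles), Cu 6 h (triangles) and CK3 (squares), 1 sample each. BdbZIP16, BdbZIP31, BdbZIP50, BdbZIP61, BdbZIP68, BdbZIP73 and BdbZIP88 are at most 0.5-fold over CK3 in Cu 24 h but not in Cu 6 h. This is common in the family, in which 54 genes are at most 0.5-fold in Cu 24 h and between 0.5-fold and 2-fold in Cu 6 h. BdbZIP28 lies at -14.13 in Cu 24 h and -14.19 in Cu 6 h, below -10.42 in CK3.

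The comparison of the copper samples with each other does not use CK3. Relative to BdGAPD, 74 of the 96 genes (77.1%) were at most 0.5-fold in Cu 24 h over Cu 6 h and 3 (3.12%) at least 2-fold higher, with a median of -1.84 (log2), which was 0.14 relative to the family median and 0.70 with no reference gene. With the normalized table of the authors, 25 genes were at most 0.5-fold and 15 at least 2-fold higher, with a median of -0.50 (log2). With the family median as reference, 10 genes (10.4%) were at most 0.5-fold and 22 (22.9%) at least 2-fold higher at 24 h. The lowest values were those of BdbZIP73 (bradi3g60870) at -4.14, BdbZIP16 at -3.96, BdbZIP88 (bradi4g36587) at -3.87, BdbZIP31 (bradi2g15940) at -3.76 and BdbZIP50 (bradi2g56080) at -3.59 (log2). They stayed at most 0.5-fold relative to the family median, from -2.16 in BdbZIP73 to -1.62 in BdbZIP50 (log2). BdbZIP88 illustrates the pattern, with a Ct of 24.30 in Cu 24 h, against 22.97 in Cu 6 h and 22.86 in CK3. BdbZIP31, a G-box factor, had a Ct of 25.27 in Cu 24 h, against 24.05 in Cu 6 h and 24.08 in CK3. These Ct values show a later detection at 24 h before any scaling, of 1.33 cycles in BdbZIP88 and 1.22 cycles in BdbZIP31 relative to 6 h.

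The highest values of Cu 24 h over Cu 6 h were those of BdbZIP58 at 2.55, BdbZIP60 at 1.41, BdbZIP81 (bradi4g27100) at 1.13, BdbZIP49 at 0.93 and BdbZIP92 at 0.61 (log2). BdbZIP81, a TGA-type gene, was detected at a Ct of 29.37 in Cu 24 h, against 33.04 in Cu 6 h and 30.01 in CK3. BdbZIP49 was detected at 29.94 in Cu 24 h, against 33.41 in Cu 6 h and 30.03 in CK3, and its same-primer partner BdbZIP48 at 29.51 in Cu 24 h, against 32.47 in Cu 6 h and 30.34 in CK3. The wells of these TGA-type genes thus shared a late Ct in Cu 6 h, and the Ct values of Cu 24 h and CK3 lay within 0.83 cycles of each other. Genes detected late on average over the series, at a mean Ct of 30 or more, had a median of -1.09 (29 genes), against -2.02 (log2) in those with a mean Ct below 25 (26 genes).

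Both comparisons with CK3 use the same control sample, so a value of CK3 that is high or low by error moves both alike, and their values are set side by side only. The types of bZIP factor below follow the homologues in rice and Arabidopsis that the study lists, and 52 of the 96 genes belong to a type. Their counts are to be read against all 96 genes relative to BdGAPD, of which 72.9% were at most 0.5-fold and 4.17% at least 2-fold higher at 24 h, and 14.6% at most 0.5-fold and 21.9% at least 2-fold higher at 6 h.

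TGA-type factors bind TGACG elements, and some of those in Arabidopsis partner NPR1 in the response to salicylic acid. Of the 14 TGA-type genes, 11 were at most 0.5-fold and 2 at least 2-fold higher at 24 h, and 5 were at most 0.5-fold and 2 at least 2-fold higher at 6 h relative to BdGAPD. The 5 at most 0.5-fold at 6 h include BdbZIP48 and BdbZIP49, which share their primers. The median was -1.34 at 24 h, against -1.53 over all genes, and -0.34 at 6 h, against 0.38 over all genes (log2). On the scale of the family median, 7 of the 14 were at most 0.5-fold and 1 at least 2-fold higher at 6 h, with a median of -0.77 (log2), against 20 and 11 of the 96 genes. In the same scaling the median at 6 h was -2.71 with CK1 and -2.17 with CK2, and at 24 h it was 0.20 with CK3, -0.82 with CK1 and -1.46 with CK2 (log2). Without copper, CK3 itself had medians of -1.32 over CK1 and -1.825 over CK2 (log2). The 2 TGA-type genes with the highest mean of both times were BdbZIP34 and BdbZIP62, and those with the lowest were BdbZIP49 and BdbZIP36. BdbZIP36 (bradi2g23890) had a level of -7.65 in Cu 24 h, -5.03 in Cu 6 h and -4.36 in CK3. BdbZIP24 (bradi1g64060) had a level of -3.35 in Cu 24 h, -1.15 in Cu 6 h and -2.16 in CK3, so that it passed the thresholds in opposite directions, at -1.19 and 1.01 (log2). The 14 values spread from -3.29 to 1.26 at 24 h and from -2.60 to 2.45 at 6 h (log2), which is wider than in any other type. The value of 2.45 was that of BdbZIP34, with a Ct of 36.28 in CK3. TGA-type genes were also detected latest, at a median Ct of 30.1 over the copper samples and CK3, against 22.92 to 27.55 in other types. Relative to the family median, 12 of the 29 genes with a mean Ct of 30 or more were at most 0.5-fold at 6 h. The part of late detection was not tested.

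RF2/VIP1-type factors include rice RF2a, which acts in vascular tissue, and Arabidopsis VIP1, which moves to the nucleus after osmotic or mechanical stimuli. All 13 genes of this type were at most 0.5-fold at 24 h relative to BdGAPD, at a median of -1.66 (log2), and 1 was at most 0.5-fold at 6 h, at a median of 0.28 (log2). The 13 genes include the same-primer pairs BdbZIP22 and BdbZIP27, BdbZIP78 and BdbZIP79, and BdbZIP94 and BdbZIP95. They also include BdbZIP67 and BdbZIP68, which have different primers but overlapping positions. The median at 24 h was 0.40 with CK1 and 0.94 with CK2 (log2) in place of CK3. At 24 h, 11 of the 13 lay between -2.16 and -1.42 (log2), and the other 2 were BdbZIP64 and BdbZIP68. In the family-median scaling the 11 lay between -0.61 and 0.12 (log2), so their values at 24 h were those of the family as a whole. BdbZIP91 (bradi4g41890) and BdbZIP86 (bradi4g35240) had the highest mean of both times, with changes of -1.42 and -1.48 at 24 h and of 0.73 and 0.68 at 6 h (log2).

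ABF/AREB/ABI5-type factors bind abscisic acid response elements and carry much of the transcriptional response to that hormone. Of the 8 genes, 4 were at most 0.5-fold and 0 at least 2-fold higher at 24 h, and 0 at most 0.5-fold and 3 at least 2-fold higher at 6 h relative to BdGAPD. The median was -0.94 at 24 h and 0.84 at 6 h (log2), above those of all genes at both times. Set against the family median, 6 of the 8 were higher than in CK3 at 24 h and 7 at 6 h, against 50 and 47 of all 96 genes, with medians of 0.60 and 0.41 (log2). With CK1 or CK2 as the control in the same scaling the medians lay between -0.16 and 0.22 (log2) at both times. BdbZIP19 (bradi1g46060) led the type, with a level of -4.18 in Cu 24 h, -2.39 in Cu 6 h and -4.21 in CK3. BdbZIP47 (bradi2g55550) had a change of -0.01 at 24 h and 1.43 at 6 h (log2), with a Ct of 36.20 in Cu 24 h, 37.30 in Cu 6 h and 37.95 in CK3. BdbZIP93 (bradi4g43850), the lowest, had a level of -4.39 in Cu 24 h, -1.97 in Cu 6 h and -2.24 in CK3, and BdbZIP46 (bradi2g53060) had -6.62 in Cu 24 h, -4.41 in Cu 6 h and -5.02 in CK3.

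The membrane-anchored factors of the bZIP17/bZIP28/bZIP49 type are released from the endoplasmic reticulum when unfolded proteins accumulate. Here 0 of the 3 genes passed a threshold at 24 h, and all 3 were at least 2-fold higher at 6 h relative to BdGAPD. The calls changed with the scaling, since 3 of the 3 were past 2-fold at 24 h and 1 of the 3 at 6 h relative to the family median. With the normalized table of the authors, BdbZIP8 and BdbZIP9 had changes of 0.26 and 0.48 (log2) at 6 h. BdbZIP8 (bradi1g19700) had a level of -5.06 in Cu 24 h, -3.73 in Cu 6 h and -4.77 in CK3. BdbZIP9 (bradi1g19702), which has the same primers, had -5.21 in Cu 24 h, -3.79 in Cu 6 h and -5.05 in CK3. Together with BdbZIP38 these wells stand for 2 primer sets. In CK3 all 3 genes had their highest Ct of the 3 samples, and relative to the family median all 3 were higher than in CK3 at both times, against 50 of the 96 genes at 24 h and 47 at 6 h, with medians of 1.38 at 24 h and 0.83 at 6 h (log2). The sign did not hold with every control. With CK1 in place of CK3 the medians were 0.36 at 24 h and -0.23 at 6 h, and with CK2 they were -0.95 at 24 h and -1.60 at 6 h (log2), while CK3 itself had medians of -1.06 over CK1 and -2.54 over CK2.

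G-box factors bind the CACGTG element found in many light- and stress-regulated promoters. Of the 6 genes, 4 were at most 0.5-fold at 24 h and 2 at least 2-fold higher at 6 h relative to BdGAPD, with medians of -1.46 and 0.77 (log2). The 2 higher at 6 h were BdbZIP41 and BdbZIP42, which share their primers. The type was split, since BdbZIP41 and BdbZIP42 had changes of 1.24 and 0.86 over CK3 at 24 h relative to the family median, whereas BdbZIP31 had -1.40 (log2). BdbZIP89 (bradi4g39630) had a level of -5.46 in Cu 24 h, -3.61 in Cu 6 h and -3.61 in CK3.

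RISBZ-type factors are named after rice activators of seed storage protein genes. All 4 genes were at most 0.5-fold at 24 h relative to BdGAPD, and 1 was at least 2-fold higher at 6 h. Relative to the family median, 0 of the 4 were at most 0.5-fold at 24 h, with a median of 0.28 (log2). BdbZIP13 (bradi1g31700) had the lowest Ct of the 96 genes in CK3, 20.46, against 20.74 in Cu 24 h and 20.71 in Cu 6 h. Its level was -2.42 in Cu 24 h, 0.15 in Cu 6 h and -0.38 in CK3, so that its Ct moved by 0.28 cycles while its level spanned 2.57 (log2). BdbZIP2 (bradi1g05480) was the RISBZ-type gene past 2-fold at 6 h, with a level of -4.44 in Cu 24 h, -2.09 in Cu 6 h and -3.21 in CK3. BdbZIP55 (bradi3g05577) and BdbZIP56 (bradi3g05580) had changes of -1.31 and -1.22 at 24 h and of -0.27 and 0.13 at 6 h (log2). The positions of these 2 genes overlap in the study's gene list.

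Among the bZIP34/bZIP61-type genes, related in Arabidopsis to a factor needed for pollen development, BdbZIP43 (bradi2g50220) had changes of -1.09 at 24 h and 0.47 at 6 h (log2). BdbZIP29 (bradi2g06790) had changes of -0.38 and 1.09 (log2) at these times, with every Ct at 35.04 or more, and BdbZIP61 has been described above. BdbZIP11 (bradi1g30140) is the only gene of the bZIP19/bZIP23 type, which in Arabidopsis activates zinc transporters when zinc is scarce. It had a level of -4.45 in Cu 24 h, -2.25 in Cu 6 h and -2.81 in CK3. Its changes of -1.64 at 24 h and 0.56 at 6 h (log2) were -0.10 and 0.13 relative to the family median, which is less than the SD of the same-primer pairs.

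**Figure D4:**
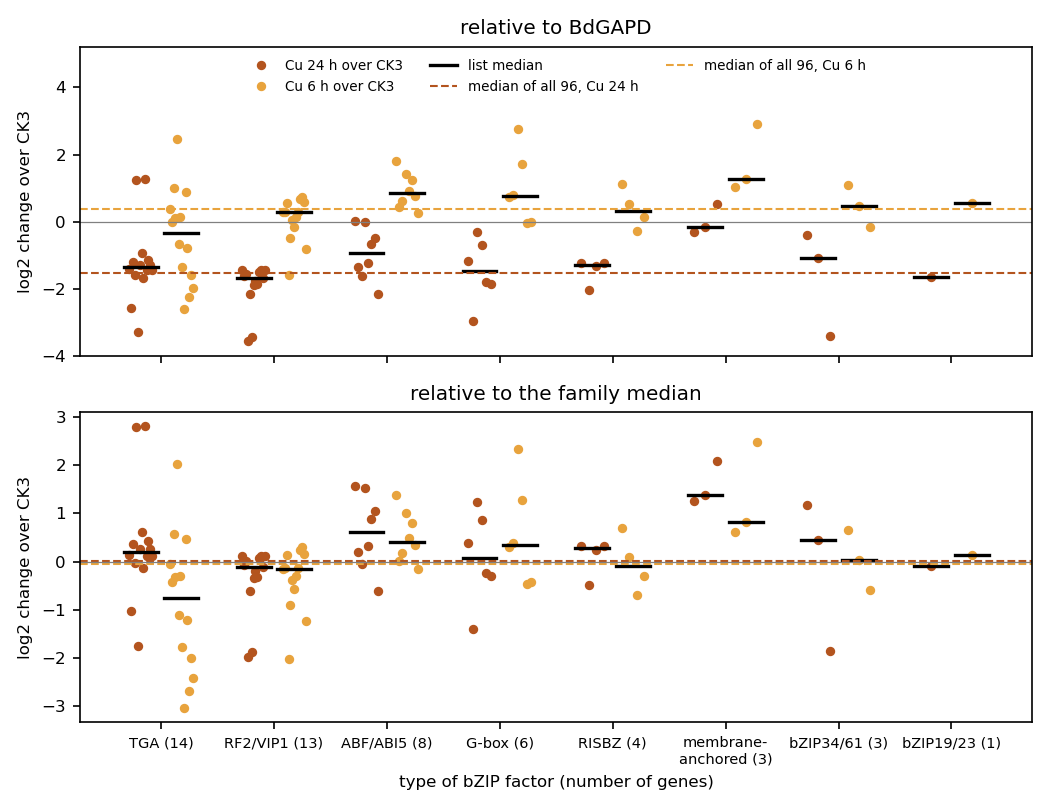
Log2 change over CK3 of the genes of each bZIP type (points) in Cu 24 h and Cu 6 h, relative to BdGAPD (top) and to the family median (bottom), with the median of each type as a bar and the medians of all 96 genes as dashed lines. The TGA-type genes spread from -3.29 to 1.26 at 24 h and from -2.60 to 2.45 at 6 h, and 11 of the 13 RF2/VIP1-type genes lie between -2.16 and -1.42 at 24 h in the upper panel.

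Intron patterns, which class the genes by the introns within the bZIP domain, differed little at 24 h. Among the patterns of 13 or more genes, the median at 24 h was -1.54 in pattern a (23 genes), -1.37 in pattern b (24 genes), -1.40 in pattern e (13 genes) and -1.64 in pattern h (27 genes), relative to BdGAPD (log2). At 6 h the medians were 0.53, 0.67, -0.67 and 0.46 (log2) in the same order. The 13 genes of pattern e are all TGA-type genes, so the pattern and the type cannot be told apart.

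Copper was also set beside the other metals at the same time, which needs no control sample. The other seedlings were treated with 0.5 mM ZnSO4, 1.0 mM MnCl2, 0.07 mM CdCl2 or 0.75 mM PbCl2, so that doses differ and the values are only placed side by side. The median level of the 96 genes relative to BdGAPD was -7.88 in Cu 24 h, against -8.80 to -6.68 in the other metals at 24 h, and -5.91 in Cu 6 h, against -8.04 to -6.98 in the other metals at 6 h. At 24 h, 1 gene (1.04%) lay above all 4 other metals and 15 (15.6%) below them relative to BdGAPD, and 9 (9.38%) above and 7 (7.29%) below relative to the family median. At 6 h, 53 genes (55.2%) lay above all 4 other metals and 5 (5.21%) below them relative to BdGAPD. Relative to the family median, 8 (8.33%) lay above and 20 (20.8%) below. In this scaling each other metal had 5 to 37 genes above the rest and 12 to 42 below at 24 h. At 6 h each had 4 to 33 above and 8 to 40 below. The copper counts in this scaling did not exceed these ranges. Relative to BdGAPD the other metals had 4 to 61 above and 4 to 44 below at 24 h. At 6 h they had 2 to 30 above and 11 to 38 below. With no reference gene, 7 lay above and 5 below in Cu 6 h. The 20 genes below in Cu 6 h relative to the family median lay below by 0.105 (BdbZIP96) to 2.31 (BdbZIP52). They include BdbZIP52, BdbZIP58 and BdbZIP28, with a Ct of 38.02, 37.88 and 35.05 in Cu 6 h. A Ct of 35 or more was reached by 17 genes in Cu 6 h and by 25 each in Cd 6 h and Pb 6 h. The counts relative to the family median were not repeated without such genes. The values relative to BdGAPD rest on its deposited Ct, 20.86 in Cu 6 h and 18.23 in Zn 6 h. The normalized table of the authors implies 20.09 and 18.73, and it was not applied to this comparison.

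BdbZIP75 and BdbZIP88, of which the first was picked after its values were seen, lay farthest above the other metals relative to the family median. BdbZIP75 stood at 3.12 in Cu 24 h, against 0.36 to 1.9 in the other metals and 1.24 in CK3 (log2). BdbZIP88 stood at 3.80 in Cu 6 h, against 1.44 to 2.11 in the other metals and 3.56 in CK3 (log2). BdbZIP52 lay farthest below the other metals at both times, at -10.16 in Cu 24 h, against -7.98 to -5.91, and at -11.25 in Cu 6 h, against -8.94 to -5.08 in the other metals, with -8.51 in CK3 (log2). BdbZIP81 stood at -6.27 in Cu 6 h, against -4.05 to -1.88 in the other metals and -3.59 in CK3 (log2). BdbZIP50 stood at -5.50 in Cu 24 h, against -3.96 to -0.05 in the other metals and -4.60 in CK3 (log2). Its same-primer partner BdbZIP51 did not share this, at -7.405 in Cu 24 h, inside the range of -9.855 to -5.3 in the other metals (log2). Of these genes, BdbZIP52 was detected at 34.93 or later in the copper and control samples, so that its distance is less certain than that of BdbZIP75 or BdbZIP88.

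**Figure D5:**
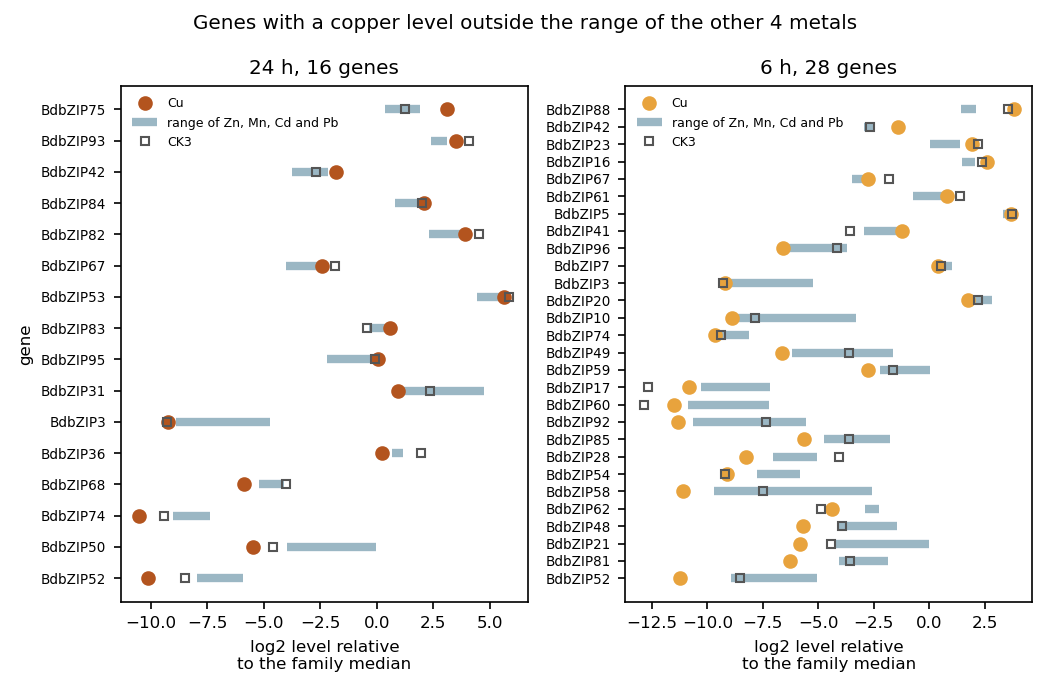
Log2 level relative to the family median of the genes whose copper level (filled circles) lies outside the range of Zn, Mn, Cd and Pb (bars) at 24 h (16 genes) and 6 h (28 genes), with CK3 as open squares, 1 sample per condition. BdbZIP75 lies highest above the range at 24 h and BdbZIP88 at 6 h, and BdbZIP52 lies farthest below it at both times.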

How the data were processed

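Expression was measured by qPCR (SYBR Green) on cDNA from 3 µg of total RNA. The authors deposited 1 Ct per gene and sample, a normalized table as a ratio to the reference gene, and fold changes as a ratio to a control. The labels state that the qPCR was repeated, and the way repeats became 1 Ct is not given in the sources used here. The fold changes hold the authors' comparisons and served only to join wells to genes, since all 28 values of each of the 96 genes (within 0.00005) equal those of 1 well. From the Ct values, log2 changes were –ΔΔCT with BdGAPD as reference and thresholds of 2 and 0.5, taken from the study without the p-value it also required.

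With 1 sample per condition, no test, interval or depth applies. Members, gene types and comparisons were chosen with earlier results of these data known. Named genes are the 5 highest and 5 lowest of each comparison, those past both thresholds in opposite directions, the 2 highest and 2 lowest of each type of 6 or more genes by mean of both times, all genes of smaller types, and same-primer genes. BdbZIP67 is given beside BdbZIP68 because their positions overlap. Gene identifiers come from the study's gene list, and no coordinates or sequences are given. Promoter motifs were not analysed. Alternatives changed the reference, the control, the genes, the amplification per cycle and the source table. The calculation was tested on simulated Ct values. Python 3.11.15, numpy, pandas and matplotlib were used.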

Additional observations from a re-analysis of the deposited data

Results flagged for a closer look

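Relative to BdGAPD, 5 genes were at most 0.5-fold in Cu 24 h over CK3 and at least 2-fold higher in Cu 6 h over CK3. The log2 change at 24 h was -1.23 in BdbZIP2, -1.19 in BdbZIP24, -2.45 in BdbZIP50, -1.65 in BdbZIP51 and -3.13 in BdbZIP73, and at 6 h it was 1.12, 1.01, 1.14, 1.18 and 1.01 in the same order. The difference between the times was not tested, since each has 1 sample, and both changes use the same control. Relative to the family median, BdbZIP73 alone stayed past a threshold, at -1.58 (log2) at 24 h, against 0.58 at 6 h. With the normalized table of the authors the changes at 6 h were 0.34, 0.22, 0.36, 0.40 and 0.23 (log2) in the order above, all short of 2-fold. With CK1 or CK2 as the control, the change of each gene had the same sign at both times, for example 1.55 at 24 h and 3.90 at 6 h in BdbZIP2 with CK1 (log2). BdbZIP50 and BdbZIP51 share their primers, and had Ct values of 31.71 and 33.61 in Cu 24 h, 30.66 and 33.32 in Cu 6 h, and 31.02 and 33.72 in CK3.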

How the results depend on the processing

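No paired analysis was possible because each condition has 1 sample, and no sample could be left out. The number of copper samples and the single reference gene limit all values. Counts and medians stayed within 1.5 times, or within the same-primer SD, with an amplification of 1.9 per cycle and with 1 gene per same-primer pair. With the 77 genes whose Ct was below 35, values relative to BdGAPD changed as follows. The genes at least 2-fold higher were 1 in Cu 24 h over CK3 and 1 in Cu 24 h over Cu 6 h. Those at most 0.5-fold were 8 in Cu 6 h over CK3. Those below all other metals were 8 in Cu 24 h and 2 in Cu 6 h, and other counts and medians held.

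The reference and the control decided more. With no reference gene, Cu 24 h over CK3 had 25 genes past 2-fold and 12 at most 0.5-fold (median 0.23), Cu 6 h over CK3 had 7 and 23 (median -0.41), and Cu 24 h over Cu 6 h had 36 and 5 (median 0.70). Relative to the family median these were 21 and 18 (median 0.015), 11 and 20 (median -0.055), and 22 and 10 (median 0.14). With the authors' normalized table, Cu 24 h over CK3 had 5 and 47 (median -0.99), Cu 6 h over CK3 had 6 and 23 (median -0.40), and Cu 24 h over Cu 6 h had 15 and 25 (median -0.50). Cu 24 h lay above all other metals in 15 genes and below them in 1 with no reference gene, and in 9 and 7 relative to the family median. Cu 6 h lay above them in 7 genes with no reference gene, and above in 8 and below in 20 relative to the family median. With CK1 as the control, Cu 24 h had 53 genes past 2-fold and 21 at most 0.5-fold (median 1.40), and Cu 6 h had 70 and 12 (median 2.95). With CK2 these were 49 and 18 (median 1.17), and 75 and 7 (median 2.96). With the mean of the 3 controls they were 28 and 20 (median 0.34), and 68 and 10 (median 2.04). Relative to the family median and with CK1, an alternative chosen after seeing the data, Cu 24 h had 23 and 36 (median -0.04) and Cu 6 h had 25 and 42 (median -0.46), and with CK2 Cu 24 h had 21 and 45 (median -0.67) and Cu 6 h had 19 and 44 (median -0.86). CK1 and CK2 are the controls of other treatments in the authors' fold changes, and the cause was not tested.

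For the genes named by their change or their type, and for the types of bZIP factor, values past a threshold changed sign as follows. Genes named only because they share primers with another gene, and genes not named, are not listed. With no reference gene, the log2 change at 24 h had the opposite sign in BdbZIP2 (0.53), BdbZIP11 (0.12), BdbZIP24 (0.57), BdbZIP43 (0.67), BdbZIP46 (0.16), BdbZIP49 (0.09), BdbZIP51 (0.11), BdbZIP55 (0.45), BdbZIP56 (0.54), BdbZIP81 (0.64), BdbZIP86 (0.28) and BdbZIP91 (0.34). With no reference gene, the median at 24 h had the opposite sign in the TGA type (0.41), bZIP19/bZIP23 type (0.12), G-box type (0.29), RF2/VIP1 type (0.10), bZIP34/bZIP61 type (0.67) and RISBZ type (0.49). With no reference gene, the median of Cu 24 h over Cu 6 h had the opposite sign in the ABF type (0.69), membrane-anchored type (1.12), bZIP19/bZIP23 type (0.34), G-box type (0.41), RF2/VIP1 type (0.60), bZIP34/bZIP61 type (0.98) and RISBZ type (0.69). With the family median as reference, the log2 change at 24 h had the opposite sign in BdbZIP2 (0.32), BdbZIP24 (0.35), BdbZIP43 (0.46), BdbZIP55 (0.23), BdbZIP56 (0.33), BdbZIP81 (0.42), BdbZIP86 (0.065) and BdbZIP91 (0.12). With the family median as reference, the median at 24 h had the opposite sign in the TGA type (0.20), G-box type (0.08), bZIP34/bZIP61 type (0.46) and RISBZ type (0.28). With the family median as reference, the median of Cu 24 h over Cu 6 h had the opposite sign in the ABF type (0.13), membrane-anchored type (0.56), RF2/VIP1 type (0.035), bZIP34/bZIP61 type (0.41) and RISBZ type (0.12). With CK1 as the control, the log2 change at 24 h had the opposite sign in BdbZIP2 (1.55), BdbZIP11 (2.32), BdbZIP13 (1.55), BdbZIP16 (2.19), BdbZIP17 (-4.42), BdbZIP24 (3.51), BdbZIP28 (1.58), BdbZIP34 (-1.19), BdbZIP36 (0.64), BdbZIP46 (0.52), BdbZIP50 (4.87), BdbZIP51 (0.78), BdbZIP55 (2.58), BdbZIP56 (4.78), BdbZIP64 (2.14), BdbZIP68 (2.89), BdbZIP81 (0.95), BdbZIP86 (0.17), BdbZIP88 (3.76), BdbZIP89 (1.56), BdbZIP91 (0.48) and BdbZIP93 (2.08). With CK1 as the control, the median at 24 h had the opposite sign in the TGA type (0.61), bZIP19/bZIP23 type (2.32), G-box type (1.47), RF2/VIP1 type (0.40) and RISBZ type (2.06). With CK1 as the control, the log2 change at 6 h had the opposite sign in BdbZIP17 (-4.49), BdbZIP28 (1.52), BdbZIP29 (-3.50), BdbZIP40 (-1.65), BdbZIP64 (4.08) and BdbZIP73 (-0.52). With CK2 as the control, the log2 change at 24 h had the opposite sign in BdbZIP2 (0.73), BdbZIP11 (1.87), BdbZIP13 (1.16), BdbZIP16 (2.52), BdbZIP17 (-3.56), BdbZIP24 (2.02), BdbZIP28 (3.03), BdbZIP36 (0.40), BdbZIP43 (0.05), BdbZIP46 (0.40), BdbZIP50 (3.32), BdbZIP51 (0.03), BdbZIP55 (2.61), BdbZIP56 (4.34), BdbZIP61 (1.74), BdbZIP64 (2.65), BdbZIP68 (1.93), BdbZIP86 (0.22), BdbZIP88 (5.18), BdbZIP89 (1.82), BdbZIP91 (0.22), BdbZIP92 (0.04) and BdbZIP93 (1.41). With CK2 as the control, the median at 24 h had the opposite sign in the TGA type (0.38), bZIP19/bZIP23 type (1.87), G-box type (1.10), RF2/VIP1 type (0.94), bZIP34/bZIP61 type (0.05) and RISBZ type (1.89). With CK2 as the control, the log2 change at 6 h had the opposite sign in BdbZIP17 (-3.63), BdbZIP28 (2.97), BdbZIP29 (-0.77), BdbZIP40 (-0.71), BdbZIP64 (4.59) and BdbZIP73 (-0.26). With the mean of the 3 controls, the log2 change at 24 h had the opposite sign in BdbZIP2 (0.35), BdbZIP11 (0.85), BdbZIP13 (0.22), BdbZIP16 (0.47), BdbZIP17 (-1.88), BdbZIP24 (1.45), BdbZIP28 (0.30), BdbZIP50 (1.91), BdbZIP55 (1.29), BdbZIP56 (2.63), BdbZIP64 (0.42), BdbZIP68 (0.47), BdbZIP88 (1.91), BdbZIP89 (0.51) and BdbZIP93 (0.45). With the mean of the 3 controls, the median at 24 h had the opposite sign in the bZIP19/bZIP23 type (0.85), G-box type (0.55) and RISBZ type (0.82). With the mean of the 3 controls, the log2 change at 6 h had the opposite sign in BdbZIP17 (-1.95), BdbZIP28 (0.24), BdbZIP29 (-1.06) and BdbZIP64 (2.36).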
